A study of Homo sapiens with 12 samples.

Results

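Protein kinase C (PKC) and the other cellular sensors of phorbol 12-myristate 13-acetate (PMA) were followed here as 10 genes, listed by name with no threshold on a measured value, out of 26210 gene rows in the expression table. They comprise 7 PKC genes (PRKCA, PRKCB, PRKCD, PRKCE, PRKCH, PRKCQ and PRKCZ), the protein kinase D gene PRKD2, the Ras exchange factor gene RASGRP1 and the diacylglycerol kinase gene DGKA. All 10 passed the filter on low values, a mean of at least 0.5 FPKM (mapped fragments scaled for transcript length and library size) over the 12 libraries, which left 14224 genes for testing. Total RNA depleted of ribosomal RNA was sequenced from 5 human cell lines in 6 groups of 2 libraries each. KM-H2, L1236 and L428 are classical Hodgkin lymphoma lines, Namalwa is a Burkitt's lymphoma line and Reh is a B-cell precursor leukaemia line. Namalwa and Reh served as the non-Hodgkin controls, and the sixth group was Reh treated with PMA at 2 ng/ml, for a time that the labels of these libraries do not give. Each group is 1 established line, so a difference between lines is not a difference between diseases, and since nothing states that the 2 libraries of a group came from separate cultures, the p-values measure only the spread between libraries.

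PKC enzymes are serine/threonine kinases that relay signals from lipid breakdown at the membrane. Conventional isoforms need calcium and the lipid diacylglycerol, another class, called calcium-independent here, needs diacylglycerol but not calcium, and atypical isoforms need neither. PMA is a plant-derived diester of phorbol that occupies the diacylglycerol site, the C1 domain, of conventional and calcium-independent PKC, of protein kinase D and of the RASGRP exchange factors, and in B cells these sensors feed the NF-kappaB and the Ras to ERK pathways. PRKCZ is atypical and DGKA removes diacylglycerol, so both were followed as counterparts rather than as receptors of PMA.

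The libraries matched their labels on the defining markers, with some exceptions. The summed level of 4 Hodgkin cell markers was 141 to 860 FPKM in the Hodgkin lines and 2.26 to 5.37 FPKM in untreated Reh and Namalwa. The 5 B cell markers summed to 0.773 to 34.7 FPKM in the Hodgkin lines and 818 to 1364 FPKM in untreated Reh and Namalwa. Within these sums PAX5 was present in L1236 at 19.8 and 33.8 FPKM, and MS4A1 was only 0.161 and 0.229 FPKM in untreated Reh. VPREB1 was listed at 0 in Reh although DNTT, IGLL1 and RAG1 were present. Namalwa held VPREB1, IGLL1 and RAG1, and its 4 B-cell precursor markers summed to 95.1 to 97.3 FPKM, against 959 to 1036 FPKM in untreated Reh. KM-H2 carried RNA of some T cell markers, since the 5 summed to 17.8 to 26.3 FPKM, against at most 0.557 FPKM in the other lines. Most of this was CD3D (22.5 and 13.5 FPKM), with CD3G at 2.85 and 3.25 FPKM, CD2 at 1.01 and 0.779 FPKM, CD3E at 0 and 0.197 FPKM and TRAT1 at 0. KM-H2 also held the myeloid marker CD14 at 4.56 and 5.79 FPKM, which was at most 0.139 FPKM elsewhere. The sequencing depth is not known, but the steps between the lowest values placed it between 0.386 and 2.34 times that of 1 untreated Reh library, and the 2 libraries of a group correlated across genes at 0.896 to 0.913 in the Hodgkin lines and 0.963 to 0.984 in the other groups. RNA levels in bulk cultures cannot tell fewer cells expressing a gene from less RNA per cell.

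The promoters of the 4 genes on which the results turn are shown first, since PRKCA and PRKCB separated the Hodgkin lines from the controls, and PRKCH and PRKD2 rose with PMA. Each sequence holds the 250 bases before the RefSeq start on GRCh38.p14, written 5′ to 3′ on the strand of the gene, and capitals mark the GC box GGGCGG or its complement CCGCCC. PRKCA is shown from chr17:66302363-66302612 on the plus strand, PRKCB from chr16:23835733-23835982 on the plus strand, PRKCH from chr14:61321329-61321578 on the plus strand and PRKD2 from chr19:46717115-46717364 on the minus strand.
PRKCA: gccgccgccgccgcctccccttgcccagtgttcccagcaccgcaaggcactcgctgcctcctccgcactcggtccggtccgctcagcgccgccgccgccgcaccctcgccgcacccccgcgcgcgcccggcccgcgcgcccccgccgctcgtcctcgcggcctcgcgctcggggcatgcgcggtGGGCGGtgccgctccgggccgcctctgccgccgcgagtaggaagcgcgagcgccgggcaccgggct
PRKCB: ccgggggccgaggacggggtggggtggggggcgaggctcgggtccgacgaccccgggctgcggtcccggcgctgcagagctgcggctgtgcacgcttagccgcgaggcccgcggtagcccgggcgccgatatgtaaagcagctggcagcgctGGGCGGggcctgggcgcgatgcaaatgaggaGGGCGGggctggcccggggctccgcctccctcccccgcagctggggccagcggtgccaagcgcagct
PRKCH: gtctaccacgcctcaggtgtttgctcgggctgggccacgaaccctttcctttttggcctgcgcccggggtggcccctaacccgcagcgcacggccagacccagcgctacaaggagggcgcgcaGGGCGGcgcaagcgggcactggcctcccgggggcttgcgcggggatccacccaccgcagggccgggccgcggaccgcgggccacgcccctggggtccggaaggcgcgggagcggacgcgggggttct
PRKD2: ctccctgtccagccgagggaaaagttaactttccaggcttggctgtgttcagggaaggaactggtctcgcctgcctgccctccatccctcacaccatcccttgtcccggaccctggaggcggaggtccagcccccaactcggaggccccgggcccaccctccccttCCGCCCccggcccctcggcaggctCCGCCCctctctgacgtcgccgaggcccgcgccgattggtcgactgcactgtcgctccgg

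These 4 stretches were rich in G and C, with a GC content of 82.0% for PRKCA, 77.2% for PRKCB, 75.2% for PRKCH and 69.2% for PRKD2. PRKCA held 47 CpG dinucleotides, PRKCB 30, PRKCH 30 and PRKD2 19. Over all 10 genes, RefSeq listed 20 promoter windows that ran from 250 bases before to 50 bases after a start. The phorbol ester response element, searched as TGACTCA and its complement TGAGTCA, was in 0 of the 20 windows and in 4.95% of all 35116 windows. The cyclic AMP response element, searched as TGACGTCA, which reads the same on both strands, was in 1 window, of PRKCZ, against 1.85% of all windows. The GC box was in 14 windows of 8 genes, against 45.0% of all windows. None of these motifs contains another, and a match is a description of sequence and not a measured binding site.

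PRKCA and PRKCB encode the conventional isoforms alpha and beta, of which beta is the isoform that B cells use downstream of the antigen receptor. PRKCA lies on chromosome 17 (hg19, 64298731 to 64806861, plus strand) and PRKCB on chromosome 16 (23847304 to 24231932, plus strand). The PRKCA level was 27.5 and 28.5 FPKM in L428, 26.2 and 29.5 FPKM in L1236, and 13.0 and 14.6 FPKM in KM-H2. It was 3.52 and 3.66 FPKM in Namalwa, 2.30 and 2.24 FPKM in untreated Reh, and 2.27 and 3.95 FPKM in Reh with PMA. Every Hodgkin library thus lay above every other library. L428 and L1236 overlapped at the top of this order. At the bottom, Namalwa and untreated Reh each overlapped Reh with PMA but not each other. PRKCB ran the other way, at 33.9 and 39.2 FPKM in untreated Reh, 37.0 and 32.8 FPKM in Reh with PMA, and 24.7 and 17.9 FPKM in Namalwa. In L428 PRKCB stood at 3.57 and 2.64 FPKM, in KM-H2 it was listed at 0.479 and 0 FPKM, and in L1236 at 0.0517 and 0 FPKM. All Hodgkin libraries were therefore below all control libraries for PRKCB, with no overlap.

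PRKCD, PRKCE, PRKCH and PRKCQ encode the calcium-independent isoforms delta, epsilon, eta and theta. PRKCD (chromosome 3, hg19, 53190025 to 53226733, plus strand), an isoform with roles in apoptosis and B cell tolerance, was highest in KM-H2 at 8.23 and 11.6 FPKM, followed by L1236 at 4.33 and 7.43 FPKM. The PRKCD values of Namalwa (2.51 and 3.22 FPKM), L428 (3.09 and 2.35 FPKM) and Reh with PMA (2.86 and 1.29 FPKM) overlapped, and untreated Reh was lowest at 0.996 and 0.974 FPKM. PRKCE (chromosome 2, hg19, 45878484 to 46415129, plus strand) was highest in Reh, at 16.3 and 20.3 FPKM untreated and 17.4 and 7.91 FPKM with PMA. L1236 followed at 7.35 and 9.03 FPKM and overlapped the treated Reh pair, whose libraries stood far apart. PRKCE was 6.56 and 5.94 FPKM in Namalwa, 2.06 and 2.77 FPKM in KM-H2, and 1.62 and 1.31 FPKM in L428, and these last 3 lines did not overlap.

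PRKCH (chromosome 14, hg19, 61654277 to 62017694, plus strand) had 1 group far above the rest. Reh with PMA gave 16.6 and 12.7 FPKM, against 2.43 and 1.85 FPKM in untreated Reh. L1236 was just below untreated Reh at 1.60 and 1.84 FPKM. The remaining lines were low, with 0.443 and 0.594 FPKM in L428, 0.193 and 0.188 FPKM in Namalwa, and 0 and 0.143 FPKM in KM-H2. PRKCQ (chromosome 10, hg19, 6469105 to 6622263, minus strand), the isoform best known from the T cell receptor pathway, was highest in untreated Reh at 10.9 and 10.5 FPKM. Its levels in KM-H2 (5.03 and 5.22 FPKM), L428 (6.21 and 2.85 FPKM) and Reh with PMA (2.54 and 4.34 FPKM) overlapped from neighbour to neighbour. Namalwa held 0.163 and 0.223 FPKM and both L1236 libraries were listed at 0, so PRKCQ was at or near 0 in 1 control line and in 1 Hodgkin line.

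PRKCZ (chromosome 1, hg19, 1981850 to 2116834, plus strand), the atypical isoform zeta, was the most variable within a line on the log2 scale. Its 2 libraries in L428 gave 5.62 and 0.476 FPKM, a spread that covered the 2.65 and 3.76 FPKM of Namalwa and the 3.20 and 1.91 FPKM of KM-H2. PRKCZ stayed below 1 FPKM in the other groups, at 0.111 and 0.452 FPKM in untreated Reh, 0.282 and 0.566 FPKM in Reh with PMA, and 0.0947 and 0 FPKM in L1236.

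PRKD2, RASGRP1 and DGKA act beside PKC, the first pair as further diacylglycerol sensors and DGKA by removing the lipid. PRKD2 (chromosome 19, hg19, 47177532 to 47220384, minus strand), a kinase that binds diacylglycerol and is phosphorylated by calcium-independent PKC, was highest in Reh with PMA at 33.7 and 44.3 FPKM. L1236 (11.1 and 19.6 FPKM) and untreated Reh (16.0 and 13.4 FPKM) overlapped below it. PRKD2 was 8.88 and 12.3 FPKM in L428, which overlapped L1236 but not Reh, and then lower in turn in Namalwa (5.84 and 3.34 FPKM) and KM-H2 (2.87 and 1.87 FPKM), with no overlap among these 3 lines. RASGRP1 (chromosome 15, hg19, 38780304 to 38857776, minus strand), which loads Ras with GTP when diacylglycerol draws it to the membrane, had the widest range in FPKM of the 10 genes. It was 169 and 157 FPKM in L1236, 27.3 and 21.7 FPKM in L428, 13.2 and 11.5 FPKM in untreated Reh, and 10.3 FPKM in both KM-H2 libraries. Reh with PMA (3.94 and 3.83 FPKM) and Namalwa (3.60 and 2.55 FPKM) were lowest, and no neighbours in the order of RASGRP1 overlapped. DGKA (chromosome 12, hg19, 56321103 to 56347811, plus strand), the kinase that converts diacylglycerol to phosphatidic acid, varied least on the log2 scale. Its levels were 13.7 and 9.13 FPKM in L1236, 13.0 and 7.80 FPKM in KM-H2, and 10.0 and 10.1 FPKM in L428, which overlapped. DGKA was 9.41 and 8.54 FPKM in untreated Reh, 6.97 and 7.91 FPKM in Namalwa, and 5.67 and 5.63 FPKM in Reh with PMA.

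**Figure D1:**
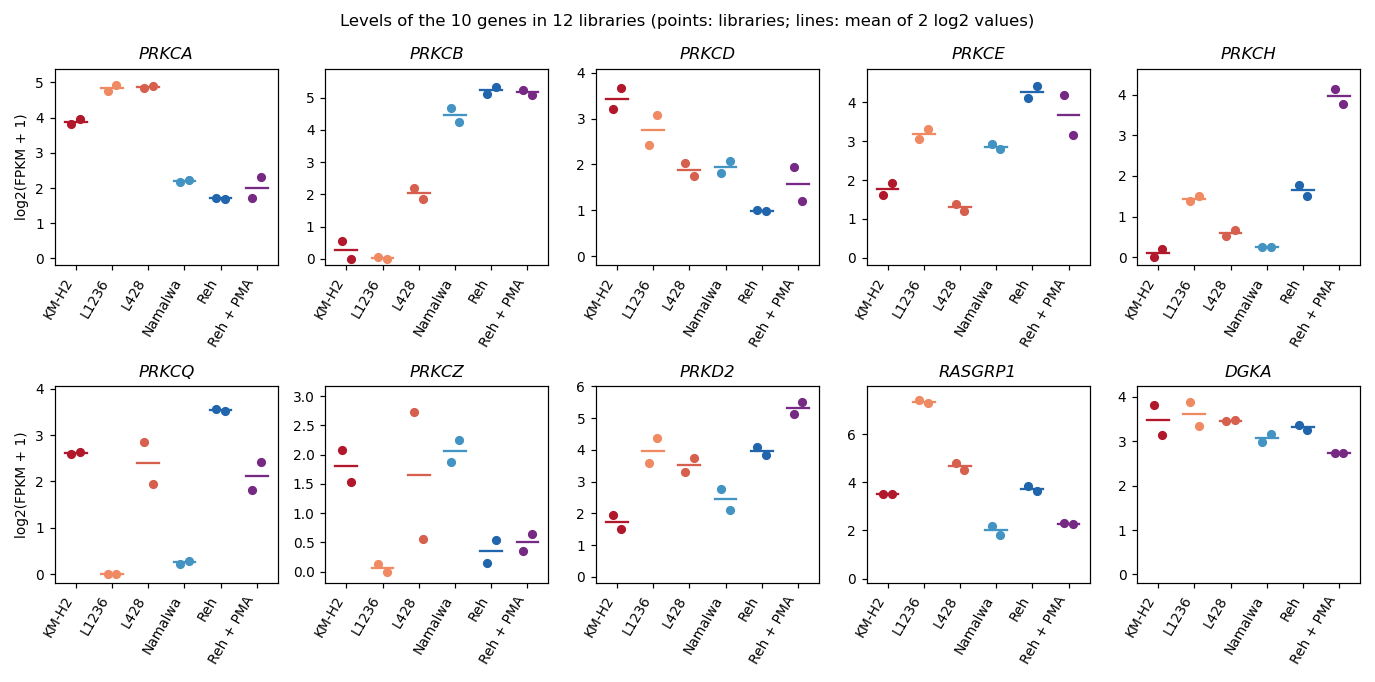
Levels of the 10 genes in the 12 libraries, 1 panel per gene, with log2(FPKM + 1) on the vertical axis, the 6 groups on the horizontal axis, 1 point per library and a line at the mean of the 2 log2 values. PRKCA is high and PRKCB low in the 3 Hodgkin lines, PRKCH and PRKD2 are highest in Reh with PMA, and RASGRP1 is highest in L1236.

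Summed over 8 genes of the PKC family (the 7 above with PRKCI, the other atypical isoform), PKC RNA came to 49.5 to 108 FPKM per library. PRKCB made up 40.6% to 41.3% of this sum in untreated Reh, 34.4% to 39.7% in Reh with PMA, and 36.1% to 46.4% in Namalwa, which made it the leading isoform in all 6 of these libraries. In the Hodgkin lines PRKCB was 3.50% to 4.82% of the sum in L428 and at most 0.667% elsewhere. PRKCA took 48.5% to 50.3% in L1236 and 37.1% to 37.8% in L428, where the atypical PRKCI took 35.1% to 48.6% and led in 1 of the 2 libraries. In KM-H2 PRKCI led in both libraries with 50.3% to 55.4%, ahead of PRKCA with 18.1% to 20.0%. Of the RNA for both conventional isoforms alpha and beta, PRKCA was 88.5% to 100% in the Hodgkin libraries and 5.39% to 17.0% in the other 6. PRKCH was 1.94% to 2.92% of the sum in untreated Reh and 15.4% in both libraries of Reh with PMA. These shares carry no test and depend on the transcript lengths used for FPKM.

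**Figure D2:**
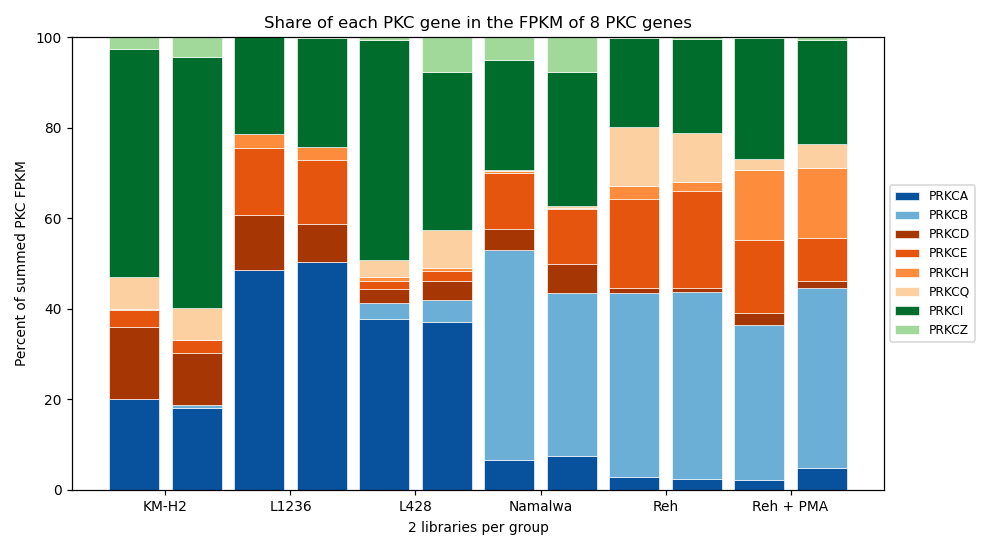
Share of each of the 8 PKC genes in their summed FPKM, in percent, as 1 stacked bar per library with 2 bars per group. Blue (conventional isoforms) passes from PRKCA in the Hodgkin lines to PRKCB in Namalwa and Reh, orange marks calcium-independent isoforms and green atypical isoforms. The orange PRKCH segment widens to 15.4% in both libraries of Reh with PMA.

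The first comparison asks how the sensors themselves stood after their ligand was added, as PMA-treated against untreated Reh. PRKCH rose 6.84-fold in mean FPKM, from 2.14 to 14.6, and PRKD2 rose 2.65-fold, from 14.7 to 39.0. PRKCQ fell from 10.7 to 3.44 FPKM and RASGRP1 from 12.4 to 3.89 FPKM, 3.11-fold and 3.19-fold lower. In each of these 4 genes the treated and untreated libraries did not overlap. The remaining 6 genes did not pass the test. Among all genes tested, 14.7% were called higher and 17.3% lower with PMA, so 2 higher and 2 lower of 10 is close to the background. That background moved with the libraries used, from 2091 to between 1088 and 1527 genes higher and from 2457 to between 1128 and 1569 lower when any 1 of the 4 libraries was left out, with 3 or 4 of the 10 genes called.

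On the scale of log2(FPKM + 1), which understates the change of low genes, the difference was 2.31 ± 0.19 (SE) for PRKCH (limma, Benjamini-Hochberg adjusted p = 6.77e-05) and -1.45 ± 0.19 for RASGRP1 (adjusted p = 0.000853). These 2 calls held whichever library was left out, with adjusted p of at most 0.00144 for PRKCH and 0.0119 for RASGRP1. PRKCQ differed by -1.43 ± 0.30 (adjusted p = 0.00726), but without treated library 0 its adjusted p was 0.0618. PRKD2 differed by 1.34 ± 0.33 (adjusted p = 0.0157), and it lost the call without untreated library 0 (0.0586), without untreated library 1 (0.0934) or without treated library 1 (0.0940), while its difference stayed between 1.15 and 1.53. The numbers 0 and 1 only name the 2 columns of a group.

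The 2 libraries of a Hodgkin line stood apart in a way that moved with the PMA difference. Across the 14224 genes, library 1 minus library 0 had a Pearson correlation with PMA-treated minus untreated Reh of 0.28 in L1236, 0.37 in L428 and 0.11 in KM-H2, although these libraries share no treatment (genes are not independent replicates). For the 4 members called with PMA, the split in L1236 and L428 was 0 or opposite in sign to the PMA difference, and in KM-H2 it had the sign of the PMA difference for 3 of the 4. The split was -0.13 and -0.14 for PRKCH, -0.77 and -0.43 for PRKD2, 0 and 0.91 for PRKCQ, and 0.10 and 0.32 for RASGRP1, in L1236 and L428 in turn. In KM-H2 it was -0.19 for PRKCH, 0.43 for PRKD2, -0.046 for PRKCQ and -0.0048 for RASGRP1. The part of the split in the PMA differences was not tested. The paper names different Illumina instruments for its RNA sequencing without saying which libraries ran on which, and their part was not tested either.

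Among the genes that did not pass, PRKCB, the main isoform of Reh, differed by -0.06 ± 0.25 (adjusted p = 0.920) and PRKCA by 0.30 ± 0.21 (adjusted p = 0.321). PRKCD differed by 0.58 ± 0.31 (adjusted p = 0.189), with both treated libraries above both untreated ones. PRKCE differed by -0.58 ± 0.32 (adjusted p = 0.193), a value that 1 library decided, since it was -1.11 (adjusted p = 0.0233) without treated library 0 and -0.061 (adjusted p = 0.942) without treated library 1. DGKA differed by -0.58 ± 0.26 (adjusted p = 0.115), although its treated libraries were below both untreated ones. PRKCZ, at under 1 FPKM throughout Reh, differed by 0.16 ± 0.57 (adjusted p = 0.910).

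Genes known to respond to PMA differed strongly between treated and untreated Reh. EGR1, an immediate early gene of the ERK pathway, went from a mean of 0.0862 to 69.2 FPKM, CD69 from 2.78 to 62.9 FPKM, and RELB from 1.59 to 13.1 FPKM. CCL4 was listed at 0 in untreated Reh and averaged 221 FPKM with PMA. CBFA2T3, a corepressor gene that the study followed, fell from 5.55 to 0.650 FPKM. The cell type marker lists also shifted, with 3 of 4 B-cell precursor markers lower (RAG1 from 410 to 8.47 FPKM). Of the 4 Hodgkin cell markers 2 rose (TRAF1 from 0.914 to 16.6 FPKM, and MIR155HG). The other 2 did not, since CCL17 was listed at 0 in all Reh libraries and TNFRSF8 was at most 0.0882 FPKM there. Among B cell markers, 2 of 5 fell, namely PAX5 and CD79B, while CD79A went from 382 to 1025 FPKM without passing the test (1.43 ± 0.51, adjusted p = 0.0621). The 5 together summed to 818 to 917 FPKM untreated and 1015 to 1241 FPKM treated. T cell markers were listed at 0 in both treated libraries. Myeloid markers summed to 26.0 to 32.6 FPKM untreated, nearly all of it MPO, and 16.6 to 18.5 FPKM treated, with CSF1R up from 0.244 to 11.5 FPKM. The part of this shift in the changes of the 10 genes was not tested.

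Other genes of the pathway were taken from 5 lists. Of 6 close relatives of PKC and PKD, 5 were tested, with a median difference of 0.36 against -0.04 over all genes. PRKD3, the sister kinase of PRKD2, rose from 16.4 to 54.7 FPKM (log2 difference 1.67 ± 0.21, adjusted p = 0.000633), and PKN3, a kinase of a related family, fell from 18.0 to 5.49 FPKM. Of 18 other proteins with a C1 domain or a role in diacylglycerol turnover, 16 were tested, 1 rose and 2 fell, beside 14.7% and 17.3% of all genes, and the median was -0.01. UNC13A, a vesicle priming factor, rose from 0.524 to 2.67 FPKM. The diacylglycerol kinases DGKE and DGKZ fell, DGKZ from 34.4 to 5.49 FPKM (-2.44 ± 0.71, adjusted p = 0.0300). DGKZ also differed between untreated libraries of 1 line, at 5.80 and 24.2 FPKM in L1236 and 1.89 and 11.7 FPKM in L428.

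Of 14 phospholipase C genes, whose products make diacylglycerol (the list also holds the related but inactive PLCL proteins), 9 were tested, 0 rose and 4 fell by limma (beside 14.7% and 17.3% of all genes), with a median of -0.81. The 4 were PLCB2 (9.07 to 3.53 FPKM), PLCG1 (25.3 to 13.4 FPKM), PLCD1 and PLCB1. PLCG1 acts below antigen receptors and PLCB2 below G protein-coupled receptors. The widest difference was in PLCG2, the main phospholipase C of B cell receptor signalling, which is named after its values were seen. PLCG2 was 345 and 335 FPKM untreated and 2.42 and 2.61 FPKM treated, and it did not pass the test (-6.60 ± 2.33, adjusted p = 0.0590). Its untreated Hodgkin libraries were also split, at 0.817 and 386 FPKM in L1236 and 4.26 and 345 FPKM in L428. In the list for PKC maturation and turnover, all 10 genes were tested and the median was 0.04. CDC37, a kinase cochaperone of HSP90, rose from 115 to 270 FPKM and PHLPP2 rose by 0.81. PHLPP1, which like PHLPP2 dephosphorylates PKC, fell from 20.6 to 4.68 FPKM. RBCK1 fell by 0.52, close to the threshold (limma, adjusted p = 0.0473).

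Of the 15 relays and substrates below PKC that are reported here, 7 were higher and 3 lower, beside 14.7% and 17.3% of all genes, with a median of 0.54 beside the -0.04 of all genes. BCL10 and MALT1, partners that link PKC to NF-kappaB, both rose. BCL10 was 6.47 and 6.95 FPKM untreated and 34.9 and 25.1 FPKM treated (log2 difference 1.99 ± 0.24, adjusted p = 0.000469). MALT1, a protease, rose from 13.4 to 35.7 FPKM. In the Ras to ERK branch NRAS rose from 38.3 to 140 FPKM and MAP2K1 from 8.05 to 33.1 FPKM, while MAP2K2, the sister gene of MAP2K1, fell from 66.0 to 35.5 FPKM and MAPK3 fell from 14.1 to 8.08 FPKM. CHUK rose by 0.69 ± 0.23 (limma, adjusted p = 0.0473). IKBKG, the regulatory subunit of the same IkappaB kinase, fell from 13.0 to 2.90 FPKM, although its near-identical pseudogene copy leaves its level uncertain. IKBKG was also split between untreated libraries, at 11.9 and 33.6 FPKM in L1236 and 4.34 and 15.8 FPKM in L428. The PKC substrates ADD3 and MARCKSL1 rose by 1.56 and 0.64 (limma, adjusted p = 0.00314 and 0.0454). MARCKSL1 and CHUK were thus close to the threshold. HRAS, MAP3K7, IKBKB, NFKBIA and MARCKS did not pass the test. The count describes these genes and is no test of the pathway.

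**Figure D3:**
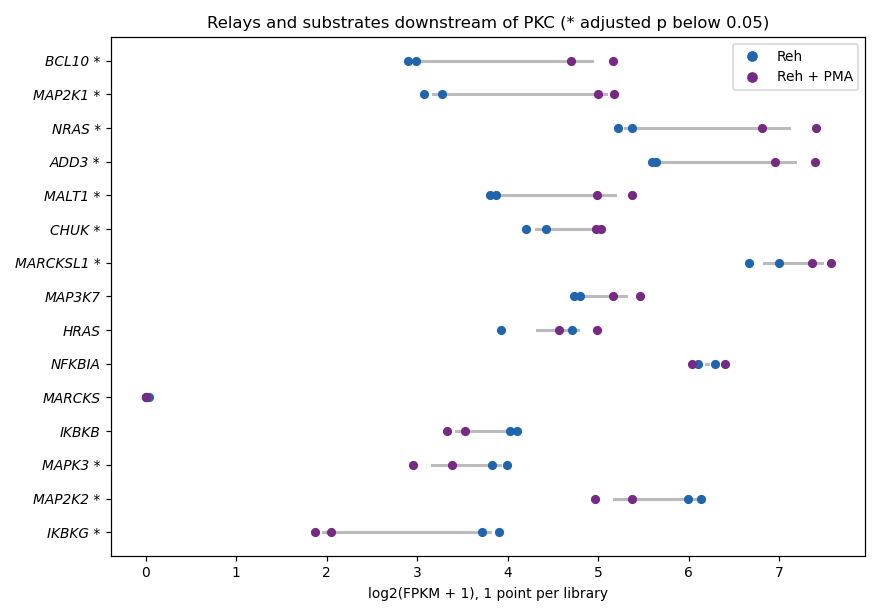
Levels of 15 relay and substrate genes below PKC in untreated and PMA-treated Reh, with log2(FPKM + 1) on the horizontal axis, 1 point per library, a grey line between group means and an asterisk at an adjusted p below 0.05. BCL10 and MAP2K1 move furthest to the right, and IKBKG moves furthest to the left.

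The second comparison set the control lines against each other, Namalwa minus untreated Reh. Of the 10 genes, 0 were called higher and 5 lower, beside 10.3% of all genes higher and 14.5% lower (at an unadjusted p below 0.05, 9 of the 10 differed, beside 34.8% of all genes). Leaving out 1 library gave 826 to 1094 genes higher, from 1469, and 1321 to 1499 lower, from 2058, with the lowest of both without Reh library 0, and 3 to 5 of the 10 genes called. PRKCQ was 55.3-fold lower in Namalwa by mean FPKM (log2 difference -3.29 ± 0.30, adjusted p = 4.57e-05) and PRKCH was 11.2-fold lower (-1.39 ± 0.19, adjusted p = 0.000652). RASGRP1 differed by -1.72 ± 0.19 (adjusted p = 0.000179). PRKCE (-1.41 ± 0.32, adjusted p = 0.0105) lost its call without Namalwa library 1 (0.0614) or Reh library 1 (0.0786), and PRKD2 (-1.52 ± 0.33, adjusted p = 0.00923) without Namalwa library 1 (0.0729) or Reh library 0 (0.0711). PRKCB, PRKCD and PRKCZ came close to the threshold, with adjusted p of 0.0517, 0.0542 and 0.0574. PRKCD and PRKCZ were called, both higher, with a pseudocount of 0.1 (adjusted p = 0.0333 and 0.0409) and with median scaling (0.0487 and 0.0484). PRKCA differed by 0.49 ± 0.21 and DGKA by -0.24 ± 0.26, with adjusted p of 0.134 and 0.596.

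**Figure D4:**
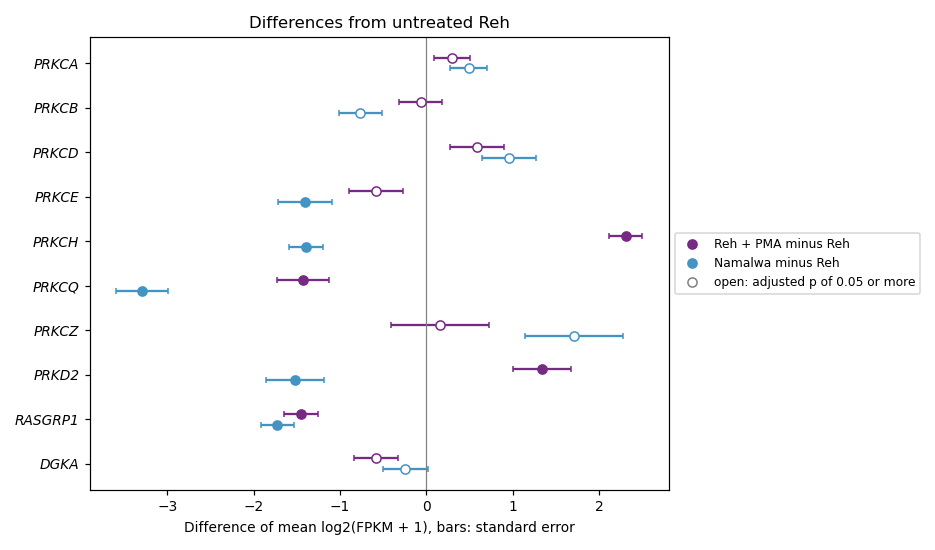
Differences of the 10 genes from untreated Reh, for Reh with PMA (purple) and for Namalwa (blue), as mean log2(FPKM + 1) with bars for the standard error from the fit across all genes, filled at an adjusted p below 0.05 and open otherwise. With PMA, PRKCH and PRKD2 lie above 0 and PRKCQ and RASGRP1 below 0, and both sets of differences share the same 2 untreated libraries.

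The third question was whether the Hodgkin lines differed from the control lines, each being set against the mean of untreated Reh and Namalwa. PRKCA was higher in all 3 lines, with log2 differences of 1.93 ± 0.18 in KM-H2, 2.89 ± 0.18 in L1236 and 2.91 ± 0.18 in L428 (adjusted p = 3.41e-05, 2.47e-06 and 2.63e-06). PRKCB was lower in all 3, by -4.56 ± 0.21, -4.81 ± 0.21 and -2.82 ± 0.21 (adjusted p = 5.32e-07, 3.58e-07 and 8.77e-06). RASGRP1 was called higher in all 3, by 0.62 ± 0.17, 4.48 ± 0.17 and 1.79 ± 0.17 (adjusted p = 0.0140, 1.48e-07 and 3.41e-05), but its KM-H2 level of 10.3 FPKM lay between Reh and Namalwa. These 3 comparisons share the same 4 control libraries, so their directions are not independent of each other. DGKA was not called in any Hodgkin line, with differences of 0.27 to 0.41.

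In KM-H2, 4 genes were called higher and 4 lower, beside 23.7% of all genes higher and 22.7% lower. PRKCD was higher by 1.96 ± 0.27 (adjusted p = 0.000366). PRKCE was lower by -1.80 ± 0.27 (adjusted p = 0.000659), PRKD2 by -1.47 ± 0.29 (adjusted p = 0.00282) and PRKCH by -0.85 ± 0.17 (adjusted p = 0.00271). The PRKCH level of KM-H2 (0 and 0.143 FPKM) was near 0, as in Namalwa (0.193 and 0.188 FPKM). Its lower call thus rested on Reh (2.43 and 1.85 FPKM). PRKCQ had a difference of 0.71 ± 0.26 (adjusted p = 0.0473), although its mean of 5.13 FPKM was below the control mean of 5.44 FPKM and lay between Reh and Namalwa, and the call was lost without any 1 of the 6 libraries involved (adjusted p 0.0832 to 0.155). PRKCZ differed by 0.60 ± 0.49 (adjusted p = 0.350). The CD3D and CD3G RNA of KM-H2 stood beside its PRKCQ level, a gene that T cells use, and its part in that level was not tested.

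In L1236, 4 genes were called higher and 2 lower, beside 22.6% of all genes higher and 22.3% lower. RASGRP1 was 21.1-fold above the control mean in FPKM. PRKCQ, listed at 0 in both libraries, differed by -1.90 ± 0.26 (adjusted p = 0.000326), and its level was also low in Namalwa. PRKCD was higher by 1.28 ± 0.27 (adjusted p = 0.00440), and without L1236 library 0 by 0.95 with an adjusted p of 0.0539. PRKCH was called higher by 0.49 ± 0.17 (adjusted p = 0.0380) but lay between the 2 control lines, and it lost the call without L1236 library 0 or 1, Namalwa library 0 or 1, or Reh library 1 (adjusted p 0.0669 to 0.155). Setting the libraries to an equal median shifted all L1236 differences by -0.12, and the PRKCH difference was then 0.37 with an adjusted p of 0.110. PRKD2 differed by 0.77 ± 0.29 (adjusted p = 0.0557), and was called without L1236 library 1 (1.16, adjusted p = 0.0333) or without Namalwa library 0 (0.94, adjusted p = 0.0357), whereas without L1236 library 0 it was 0.39 (adjusted p = 0.399). PRKCZ differed by -1.14 ± 0.49 and PRKCE by -0.37 ± 0.27, with adjusted p of 0.0905 and 0.308, and PRKCZ was called with a pseudocount of 0.1 (-2.92, adjusted p = 0.0216).

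In L428, 2 genes were called higher and 2 lower, beside 23.6% of all genes higher and 23.0% lower. Apart from PRKCA, PRKCB and RASGRP1, PRKCE was called, lower by -2.26 ± 0.27 (adjusted p = 0.000164) and 8.36-fold below the control mean in FPKM. PRKCQ differed by 0.50 ± 0.26 (adjusted p = 0.147), and by 0.95 (adjusted p = 0.0136) without L428 library 0 but 0.043 (adjusted p = 0.935) without library 1. PRKCZ differed by 0.44 ± 0.49 (adjusted p = 0.497), a value that 1 library decided, since it was 1.53 (adjusted p = 0.00405) without library 0 and -0.64 (adjusted p = 0.122) without library 1. PRKCD, PRKCH and PRKD2 did not pass, with differences of 0.42, -0.35 and 0.31.

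**Figure D5:**
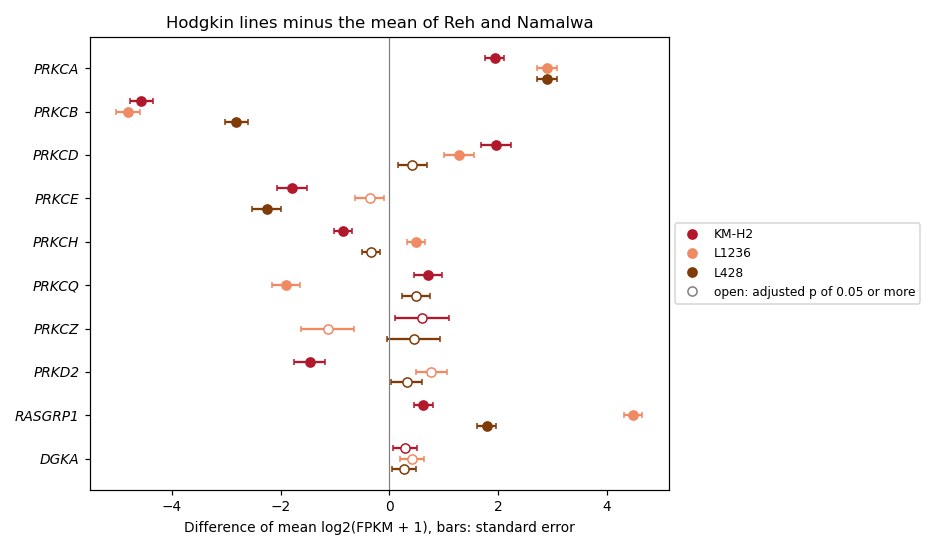
Differences of the 10 genes in KM-H2, L1236 and L428 from the mean of untreated Reh and Namalwa, as mean log2(FPKM + 1) with standard errors, filled at an adjusted p below 0.05 and open otherwise. PRKCA and PRKCB part to opposite sides in all 3 lines, while PRKCH, PRKCQ and PRKD2 scatter on both sides of 0.

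With the cell line as the unit, 3 Hodgkin against 2 control lines, 0 of the 10 genes were called by limma, beside 0.436% of all genes called higher and 0.359% lower. PRKCA differed by 2.58 ± 0.45 (adjusted p = 0.116) and PRKCB by -4.06 ± 0.71 (adjusted p = 0.113), and these were the 2 genes of the 10 with an unadjusted p below 0.05, beside 13.4% of all genes. Treating the 10 libraries as separate units called 5 of the 10, namely PRKCA, PRKCB, PRKCD, PRKCE and RASGRP1, beside 28.4% of all genes called higher and 25.7% lower in that fit, so this count is near the background, and such libraries are not replicates of a lymphoma type. Among the other pathway genes, 2 passed the test between lines. They are named here after their values were seen, and with any 1 of the 5 lines left out 0 of all genes were called by limma in either direction, so these 2 calls were lost as well. RASGRP2, which activates Rap GTPases, averaged 34.0 FPKM over the control lines and 0.583 FPKM over the Hodgkin lines (log2 difference -4.50 ± 0.50, adjusted p = 0.0387). MARCKS, a membrane protein that PKC phosphorylates, averaged 0.527 FPKM over the control lines and 56.0 FPKM over the Hodgkin lines (5.14 ± 0.61, adjusted p = 0.0435). In single lines, MARCKS was 22.6 to 97.3 FPKM in the Hodgkin libraries, 1.33 and 0.755 FPKM in Namalwa, and at most 0.0247 FPKM in Reh.

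The Hodgkin lines also differed among themselves. PRKCH and PRKCQ were called in opposite directions in KM-H2 and L1236 against the controls, and L1236 was therefore set directly against KM-H2, a comparison added after these values had been seen. There, 5 of the 10 genes were higher in L1236 and 2 lower, beside 17.7% of all genes higher and 17.5% lower. RASGRP1 was 15.8-fold higher in L1236 by mean FPKM (log2 difference 3.86 ± 0.19, adjusted p = 1.09e-06), PRKD2 6.48-fold (2.24 ± 0.33, adjusted p = 0.000793), PRKCE 3.40-fold (1.43 ± 0.32, adjusted p = 0.00709) and PRKCA 2.02-fold (0.96 ± 0.21, adjusted p = 0.00696). PRKCH differed by 1.34 ± 0.19 and PRKCQ by -2.61 ± 0.30. PRKCZ was lower by -1.74 ± 0.57 (adjusted p = 0.0416) and lost the call without any 1 of the 4 libraries (adjusted p 0.0830 to 0.188). PRKCB, PRKCD and DGKA differed by -0.25, -0.69 and 0.14 and were not called.

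Within the set, mean log2 levels of PRKCA and PRKCB over the 6 groups had a Pearson correlation of -0.90, and those of PRKCH and PRKD2 one of 0.92. The genes most like each member over the same 6 groups were HMGN5 and KRT7 for PRKCA (0.995 and 0.994) and TUBA1B and DOLPP1 for PRKCB (0.993 and 0.990). For the calcium-independent isoforms they were HGSNAT and CTSH for PRKCD, N4BP2L2 and PYCARD for PRKCE, TMEM159 and LCLAT1 for PRKCH, and APOL3 and KIF13A for PRKCQ. KIAA1324L and CREB5 were nearest to PRKCZ, ANKRD50 and CYTH2 to PRKD2, EDEM2 and MYCBPAP to RASGRP1, and RAD51D and NUDT16 to DGKA. With 6 groups, of which 2 are the same line, such values are easily reached, and between 14 genes (PRKCQ) and 184 genes (PRKCA) exceeded a correlation of 0.95.

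Neighbouring genes could add reads to a member where strand was not used in counting, which is not given in the sources used here. On the opposite strand, PRKCA overlaps PRKCA-AS1 (0 to 0.978 FPKM over the 12 libraries), PRKCH overlaps TMEM30B (0 to 0.137 FPKM) and PRKD2 overlaps DACT3-AS1 (0 to 0.798 FPKM). All 3 were below 1 FPKM in every library, also in Reh with PMA, where PRKCH and PRKD2 averaged 14.6 and 39.0 FPKM.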

How the data were processed

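RNA-seq of 12 libraries in 6 groups was analysed. Per the labels and the submitters' processing notes, the authors aligned reads to hg19 with TopHat2 2.0.11 and deposited FPKM values per gene from Cuffnorm 2.2.1. FPKM is scaled for length and library size and is not a count. The gene annotation and the strand setting used for counting are not given in the sources used here. Columns were matched to groups by name, and 0 columns were left unmapped.

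Values were taken as log2(FPKM + 1) and fitted with limma 3.58.1 in R 4.3.3 over all 6 groups (6 residual degrees of freedom), for genes with a mean FPKM of at least 0.5. Cell lines were compared on line means (3 residual degrees of freedom). P-values were adjusted by Benjamini-Hochberg over all 14224 genes, and a gene was called at an adjusted p below 0.05. The fit was tested on simulated data. Alternatives were another pseudocount (0.1), no filter, median scaling, a minimum log2 difference of 1, an intensity trend in limma, a replicate block, a library-level contrast and leaving out each library or line.

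The members and lists were chosen with earlier results of these data known. All 10 members were named, with the listed genes called with PMA (at most 10 a list) and the 2 most correlated genes per member. Gene positions are from a GENCODE annotation on hg19, and promoters from RefSeq on GRCh38.p14, where all 10 members matched. Depth is unknown. Some genes of the lists are not reported here and were left out of the counts.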

Additional observations from a re-analysis of the deposited data

Results flagged for a closer look

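PRKCH and PRKCQ were called in opposite directions in KM-H2 and L1236 against the same controls. The direct comparison below was added because of this pattern, on the same libraries, so its p-values are no independent support. Against the mean of untreated Reh and Namalwa, PRKCH was lower in KM-H2 (-0.85) and higher in L1236 (0.49), and the direct difference, L1236 minus KM-H2, was 1.34 ± 0.19 on the log2 scale (limma, adjusted p = 0.000618). PRKCQ was higher in KM-H2 (0.71) and lower in L1236 (-1.90), and the direct difference was -2.61 ± 0.30 (adjusted p = 0.000154). Both libraries of L1236 exceeded both of KM-H2 for PRKCH, and both were listed at 0 for PRKCQ. PRKCH was near 0 in KM-H2 (0 and 0.143 FPKM) and in Namalwa (0.193 and 0.188 FPKM), so its lower call in KM-H2 rested on Reh. The PRKCQ call in KM-H2 was lost in all 6 fits that left out 1 library (adjusted p 0.0832 to 0.155), and its mean FPKM there was below the control mean. The PRKCH call in L1236 was lost in 5 of 6 such fits (adjusted p 0.0669 to 0.155). No group was large enough for a search for outlying libraries.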

How the results depend on the processing

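Single members were retested 410 times under settings that kept all libraries. In 387 the direction and the side of the threshold were unchanged, in 9 the call was lost, in 14 a call was gained, and in 0 the direction turned. Only the pseudocount and median scaling changed a difference itself. The other settings changed only its test or threshold, so the direction could not turn there. Leaving out libraries or lines gave 450 further values, of which 399 were unchanged, 24 lost and 5 gained a call, and 22 turned direction. A fit without 1 library leaves 1 in its group, which is then assumed to vary like the others, and a fit without Reh or Namalwa leaves 1 control line.

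Between Hodgkin and control lines, the count of genes called higher was 62, and it became 116 with a pseudocount of 0.1, 32 without the filter and 4042 with libraries as units. The count called lower was 51, and became 82 with the pseudocount of 0.1 and 3650 with libraries as units, where 5 members were called. A minimum log2 difference of 1 left 1981 genes lower and 5 members called in KM-H2, 1946 genes lower in L1236 and 2028 in L428. The KM-H2 call of PRKCQ was lost with median scaling (adjusted p = 0.0610) and without the filter (0.0648). With a pseudocount of 0.1, PRKCQ in L428 was called (1.28, adjusted p = 0.0122).

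Leaving out 1 library or line gave 0 to 66 genes higher and 0 to 56 lower between Hodgkin and control lines, with PRKCH between -0.93 and 0.46, PRKCQ between -1.88 and 1.42, PRKCZ between -0.89 and 0.83 and PRKD2 between -0.89 and 0.63. With PMA it gave 1088 to 1527 genes higher and 1128 to 1569 lower, with PRKCB between -0.17 and 0.038 and PRKCZ between -0.035 and 0.35. For Namalwa minus Reh it gave 826 to 1094 genes higher, 1321 to 1499 lower and 3 to 5 members called. DGKA ranged from -0.058 to 0.61 in KM-H2, PRKCZ from -0.64 to 1.53 in L428, and in L1236 minus KM-H2 DGKA ranged from -0.20 to 0.47 and PRKCB from -0.53 to 0.036. None of the members whose direction turned had been called. Fewer libraries were tested in these fits, and other causes were not tested.

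The column numbers were not taken to pair the libraries, because no label ties them and deviations of same-numbered libraries correlated at over 0.1 in 6 of 15 pairs of groups, not in all. These 6 were the 3 Hodgkin pairs (0.282 to 0.631), Namalwa with Reh (0.357) and 2 others. A replicate block kept 4 members called with PMA (2280 genes higher and 2691 lower), 8 in KM-H2 and 4 in L428, and raised the count to 7 in L1236 with PRKCZ (adjusted p = 0.0408) and to 7 in Namalwa minus Reh with PRKCD (0.0470) and PRKCZ (0.0235). Values near 0 FPKM rest on few reads at an unknown depth.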
